A study of Mus musculus with 12 samples.

Results

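The messenger RNAs of the cytoplasmic ribosomal proteins were followed across 12 libraries of mouse oocytes, 6 of the high-fat diet (HFD) and 6 of the control diet (CD). Members were chosen by gene symbol. Symbols of the form Rpl plus a number, with or without a final a, and Rplp0, Rplp1 and Rplp2 were taken as proteins of the large (60S) subunit, and symbols of the form Rps plus a number, with or without a final a, x or 1, and Rpsa as proteins of the small (40S) subunit. The rule found 77 genes of the 24062 in the table, 46 of the 60S and 31 of the 40S subunit. The females ate the HFD, labelled as a modified form of the D12492 feed, or the CD, labelled D12492, for 9 weeks, were all fed the CD during mating with vasectomized males, and were killed on day 0.5 after mating. The sources used here name no strain, age or genotype. Each library came from a pool of 4 oocytes, and the labels tie no pool to any of the 6 females per diet, so a p-value here weighs the diets against the pool-to-pool spread, which may be technical in part. Because both feeds carry the same product code, what the control feed contained is uncertain, and groups follow the labels' diet names.

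A ribosome joins a small subunit, which reads the messenger RNA, to a large subunit, which forms the peptide bond, and each subunit is built from ribosomal RNA and one copy of nearly every ribosomal protein, the stalk proteins being the exception. A growing mouse oocyte makes ribosomes in large number, and transcription stops before ovulation, so that the ovulated egg carries stored messenger RNAs, many of which are removed during maturation. Messenger RNAs of ribosomal proteins typically begin with a C followed by an unbroken run of C and T (the 5′ terminal oligopyrimidine motif), through which their translation is controlled together.

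Sequence around the transcription start is printed first because a pyrimidine run there is the feature that messenger RNAs of this family are known for. Starts and sequences were taken from RefSeq (GRCm38.p6), which listed a start for 57 of the 77 members. Each line runs from 15 bases before the listed start to 15 bases after it, 5′ to 3′ on the gene's strand, and capitals mark a run of at least 8 C or T bases that opens with C. The set holds the members that carry the diet results below, examples of both subunits with long and short runs, and the Rps27 and Rps27l pair, whose levels were far apart.
Rplp2 (chr7:141447636-141447665, plus strand): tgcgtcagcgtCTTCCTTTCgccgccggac
Rpl37 (chr15:5116598-5116627, plus strand): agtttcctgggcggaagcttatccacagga
Rpl35 (chr2:39005117-39005146, minus strand): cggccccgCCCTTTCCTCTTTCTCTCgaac
Rpl28 (chr7:4792950-4792979, plus strand): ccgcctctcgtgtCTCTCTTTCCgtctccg
Rpl15 (chr14:18270972-18271001, minus strand): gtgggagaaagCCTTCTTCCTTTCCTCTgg
Rps6 (chr4:86857353-86857382, minus strand): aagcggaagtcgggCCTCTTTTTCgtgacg
Rps24 (chr14:24490663-24490692, plus strand): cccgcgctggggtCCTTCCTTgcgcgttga
Rps28 (chr17:33824548-33824577, minus strand): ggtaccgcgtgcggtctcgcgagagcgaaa
Rps27 (chr3:90213634-90213663, minus strand): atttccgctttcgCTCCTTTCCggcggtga
Rps27l (chr9:66946071-66946100, plus strand): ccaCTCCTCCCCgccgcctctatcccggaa

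The run was 9 bases long in Rplp2, 18 in Rpl35, 17 in Rpl15, 10 in Rpl28 and Rps6, 8 in Rps24 and 9 in Rps27, and the windows of Rpl37 and Rps28 held none. When the run was searched from 20 bases before to 30 bases after each start on the gene's strand, 31 of the 57 members (54.4%) held one, against 17.0% of 27025 genes with a listed start. By subunit it was 20 of 34 for the 60S (58.8%) and 11 of 23 for the 40S (47.8%). The search did not exclude runs that end before the listed start, as the one marked in Rps27l does. By that start such a run lies outside the messenger RNA, so these counts are not counts of the 5′ terminal motif. The letters CCGGAAG, the core bound by ETS family factors, were searched on both strands from 250 bases before to 50 bases after the start. They were found in 24 of the 57 members (42.1%), against 9.93% of all genes with a listed start. The letters AAGATGGC, searched in the same way and known as a YY1 motif, were found in 5 members (8.77%), against 3.19% of all genes. The reverse strand of the first motif, CTTCCGG, can share bases with a pyrimidine run. RefSeq starts can differ from the gene bounds of GENCODE used elsewhere here, as for Rplp2, whose RefSeq start lies inside its GENCODE gene. For Rpl37 the listed start lies before its GENCODE gene, which begins at 5116645, and the search ended short of that base. A run at the GENCODE start of Rpl37 would thus have been missed.

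Gene counts summed to between 8409491 and 13793598 per library. All counts in HFD 1, 2, 4 and 6 were even, which held for no CD library, so this feature cannot be told apart from the diet in those 4 pools. HFD 3 stood apart, with 14755 genes detected against 12229 to 13052 elsewhere. Zp3, a zona pellucida protein, was at 3942 CPM in HFD 3 against 11 to 195 elsewhere. CPM here are counts scaled by the library totals of the tested genes, adjusted with edgeR's TMM factors. They therefore differ from plain shares of gene counts. Gdf9, an oocyte growth factor, was at 543 to 616 CPM in HFD 1, HFD 2, CD 2 and CD 4 and at 4601 to 9642 CPM in the other 8 libraries. Oocyte markers summed to at least 12258 CPM in every library. Among 16 cumulus and granulosa markers the sum was 102 to 1807 CPM in HFD and 123 to 1349 CPM in CD, most of it Serpine2, with Amh and Ptx3 at 0 in all libraries, and the sum in HFD 3 was 326 CPM. Markers of zygotic genome activation summed to 211 CPM in HFD 3, the highest HFD pool, and to 20.1 to 70.1 CPM in CD, with 2 of the 7 markers, Usp17la and Tdpoz4, at 0 in all libraries. Reads aligned to more than 1 place, which the counter did not assign to a gene, took 30.3% ± 3.93 of all tallied reads in HFD and 23.3% ± 2.84 in CD (SD, n = 6), and every HFD library lay above every CD library (two-sided exact permutation test, p = 0.00216, the smallest this design can give). The part of these library differences in the results below was not tested.

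The family made up a small share of the counted transcriptome. All 77 members together took 0.0335% to 0.0865% of gene counts in the CD libraries and 0.0662% to 0.115% in 5 HFD libraries, and 0.751% in HFD 3. In comparison, Gdf9 alone took 0.0551% to 0.823%. In CD, 28 of the 77 members (18 of the 60S and 10 of the 40S) averaged under 1 CPM. Rpl26 had no count in any library, which allows up to 0.243 to 0.374 CPM per library (3 counts, counting error only). The deposited counts leave out reads that align to several places, and ribosomal protein genes have many processed copies in the genome, so these low levels are levels of the counted reads.

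Per kilobase of main transcript, leading members over 12 libraries included Rpl37, a small zinc-binding protein of the 60S, at 102 CPM per kb, and Rplp2 of the stalk at 65.9. In CD alone Rpl37 was at 46.1, Rpl4 at 43.4 and Rplp0 at 42.8 CPM per kb, and each of these levels varied between pools by more than the gaps between them. The lowest were Rpl26 at 0, Rps27 at 0.0542 and Rpl30 at 0.644 CPM per kb. Lengths are a limit here, because 33 members have several equally ranked transcripts. With the shortest of them, Rplp2 came to 151 CPM per kb in place of 65.9, and Rps15a, whose main transcript is 5179 bases long, is understated in the same way.

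Sequence shared with other genes bears on how much of each member can be counted at 1 place. Each main transcript was cut into overlapping 50-base windows, and a window was called unique if it occurred in the transcripts of no other annotated gene. The median member had 48.3% unique windows, with a range of 1.35% (Rps27) to 100%, and shared windows with a median of 11 other genes and up to 123. Of the 77 members, 9 had at least 80% unique windows and 18 had under 20%. Level per kilobase and uniqueness were only weakly related across the 77 genes (Spearman 0.13, as a description, since these genes share libraries). Rpl5 and Rpl35, with 6.16% and 4.90% unique windows, were counted at 26.2 and 24.1 CPM per kb, or 4.97 and 9.35 without HFD 3, and Rps3, with 97.0%, at 1.82, or 0.847 without HFD 3. The windows were compared with annotated transcripts only, since the genome sequence was not used here.

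**Figure D1:**
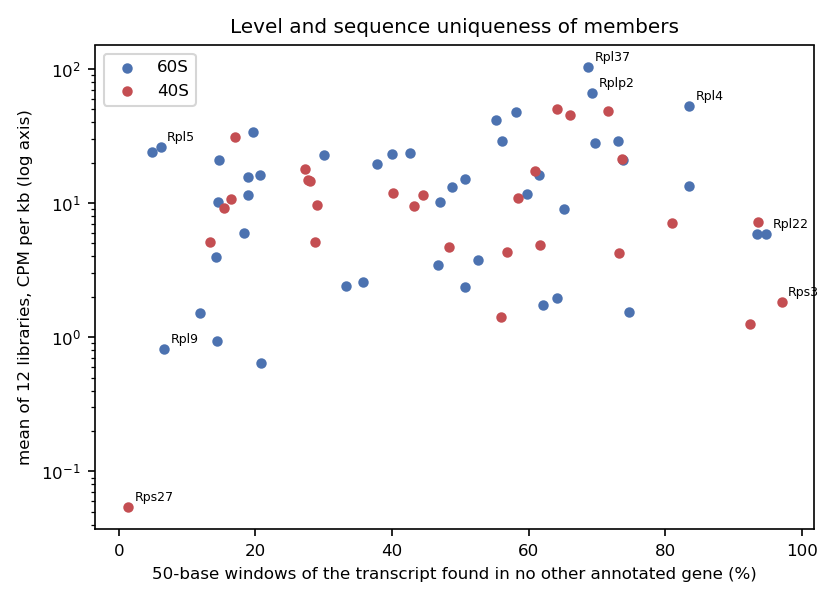
Each point is one of the members reported here with a count in any library: the x axis is the percent of its 50-base transcript windows found in no other annotated gene, and the y axis (log scale) its level in CPM per kb averaged over 12 libraries, blue for 60S and red for 40S. Members of every uniqueness lie across the range of levels, and Rps27, at 1.35% unique windows, lies far below the rest at 0.0542 CPM per kb.

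The study asks how diet before mating alters the RNA of the oocyte. Of the 77 members, 55 (33 of the 60S and 22 of the 40S) passed edgeR's filter on low counts and were tested. All 55 had positive log2 fold changes (HFD against CD, the log2 difference between the diets), from 0.28 for Rpl15 to 5 for Rpl38, against 51.8% of the 9935 genes tested. The median log2 fold change was 1.78 for the 60S, 1.97 for the 40S and 0.04 over all tested genes, and 46 members exceeded 1, against 15.7% of tested genes. No member passed the threshold of 0.05 with edgeR after Benjamini-Hochberg adjustment over all tested genes (0 of 55, against 0% of tested genes). The smallest adjusted p was 0.0913, which 15 members shared, and 45 members had an unadjusted p under 0.05 with a positive fold change, against 13.4% of tested genes. No member had such a p with a negative fold change (8.89% of tested genes). DESeq2 called 18 members higher in HFD (11 of the 60S and 7 of the 40S, against 4.83% of tested genes) and none lower (2.76%), and gave 19 of the 55 no adjusted p. For single genes below, the DESeq2 adjusted p is printed only for some of those under 0.05. It was 0.581 for Rpl4, 0.687 for Rplp0 and 0.070 for Rpl10, and Rpl5, Rpl35 and Rps13 had none. With limma-voom and sample quality weights 2 members passed, Rpl37 and Rplp2, against 0.322% of tested genes. In bulk pools, more RNA of one kind per cell and more cells that hold it cannot be told apart.

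The filter asks for a minimal count in as many libraries as one diet holds, so a member low in all CD pools was tested only if its HFD pools were higher, and counts over the tested members carry that choice. HFD 3 was the highest of 12 for 49 of the 55 members, against 22.6% of tested genes, and for 68 of all 77. The median tested member stood 3.67 times above its next highest library in HFD 3, and for 13 members the ratio exceeded 10. Without HFD 3 the medians were 1.08 for the 60S and 0.99 for the 40S, with 53 of 55 members still above 0 (47.9% of tested genes), and for 38 of the 55 the fold was over 1.5 times smaller than with all pools. In the 8 libraries that hold odd counts, of which HFD 3 and HFD 5 are the HFD pools, edgeR called 43 of 72 tested members higher, against 4.02% of tested genes, and there the filter can be passed through HFD 3 and HFD 5 alone. The other 5 HFD pools were not alike. HFD 1 lay above all 6 CD pools for 40 of the 55 members (24.2% of tested genes), HFD 5 for 36 (15.8%), HFD 6 for 35 (19.4%), HFD 4 for 33 (19%) and HFD 2 for 15 (18%), and HFD 3 for 54 (29.4%). Among the CD pools, CD 3 was the lowest for 36 members. No share of all tested genes was worked out for this count. The same holds for the ratios of HFD 3 to the next highest library and for the 38 smaller folds. These counts describe the members only and do not set them apart from other genes.

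**Figure D2:**
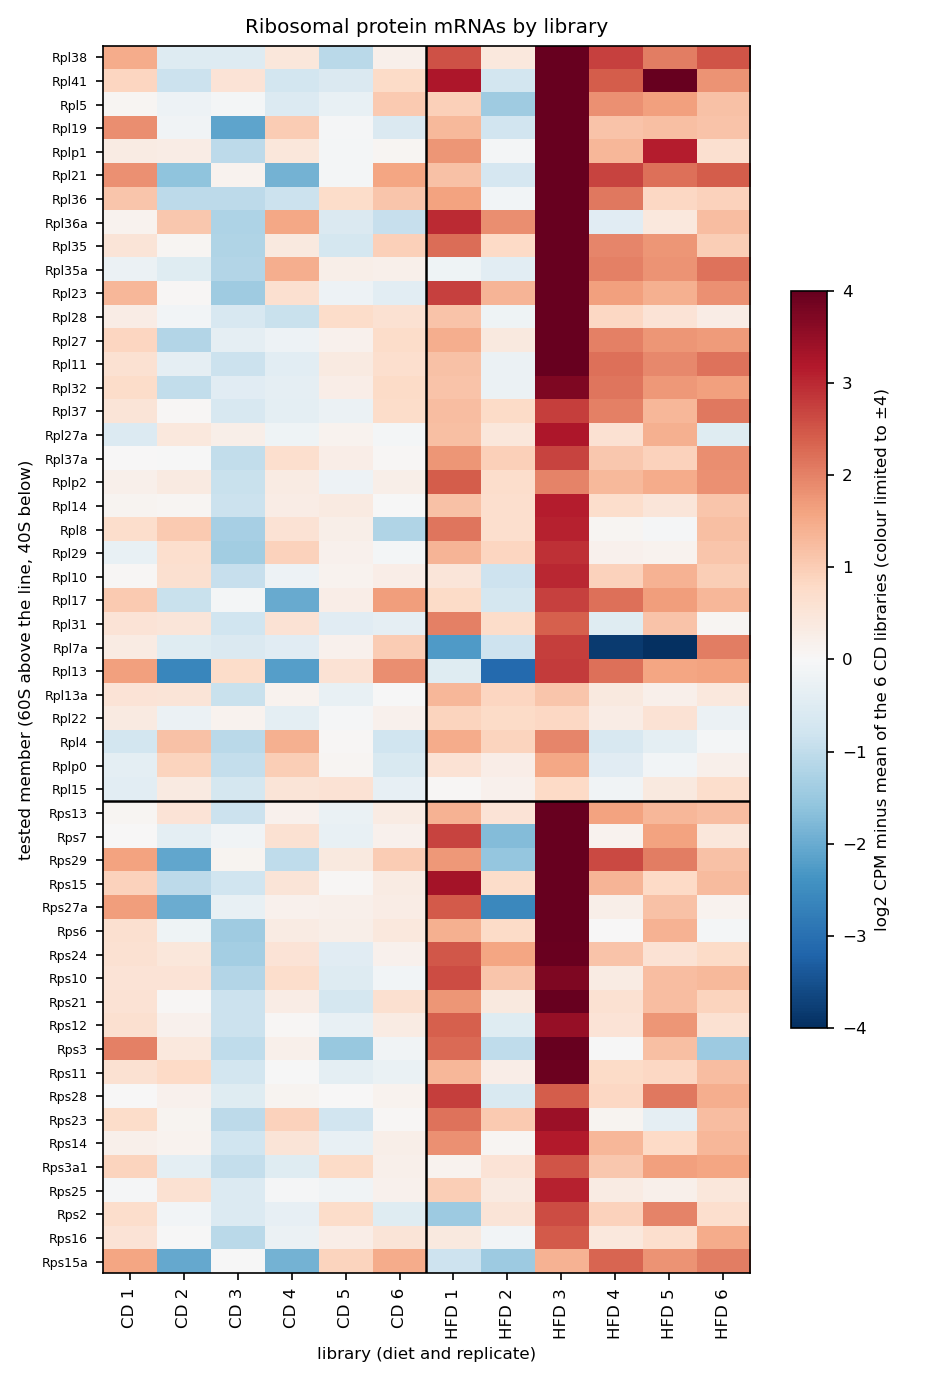
Colours give the log2 CPM of 52 tested members (rows, 60S above the line and 40S below, in order of fold change) in each library (columns) minus the mean of the 6 CD libraries, with the scale limited to 4 in either direction. HFD 3 is the highest library for 47 of the 52, HFD 2 lies above all 6 CD libraries for 15, and CD 3 is the lowest CD column for 35. No share over all tested genes was worked out for the CD 3 count.

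The acidic stalk, which recruits elongation factors to the 60S, contains a member whose diets did not overlap. Rplp2 (chromosome 7, 141447370 to 141451585, mm10) was at 15.6, 34.0 and 37.7 CPM in CD (lowest, median and highest pool) and at 48.1, 92.9 and 157 CPM in HFD. Every HFD pool lay above every CD pool, and the highest was HFD 1, so this contrast did not rest on HFD 3. Its log2 fold change was 1.66 ± 0.33 (SE; edgeR, adjusted p = 0.0913; DESeq2, adjusted p = 0.000673), or 1.59 without HFD 3. Its partner Rplp1 was far scarcer, at 0.756, 2.06 and 2.49 CPM in CD and 1.66, 5.61 and 95 in HFD. The groups of Rplp1 overlapped at HFD 2, and the log2 fold change of 3.50 ± 0.91 (edgeR, adjusted p = 0.0913) became 1.80 without HFD 3.

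The stalk base protein Rplp0, on which Rplp1 and Rplp2 assemble, behaved otherwise. It was at 26.7, 46.4 and 101 CPM in CD and 37.3, 60.4 and 152 in HFD, and only HFD 3 lay above the CD range. The log2 fold change was 0.31 ± 0.41 (edgeR, adjusted p = 0.690) and −0.06 without HFD 3. Rpl12, which binds beside Rplp0, did not pass the filter and was at 0 to 1.81 CPM in CD and 0.102 to 29.6 in HFD.

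Rpl5 and Rpl11 carry the 5S ribosomal RNA into the 60S subunit and, outside the ribosome, bind the p53 regulator Mdm2. Rpl11 was at 2.55, 4.92 and 7.70 CPM in CD and 4.05, 20.3 and 85.9 in HFD, with only HFD 2 inside the CD range. The contrast was 2.40 ± 0.61 on the log2 scale (edgeR, adjusted p = 0.0913; DESeq2, adjusted p = 0.00385), or 1.58 without HFD 3. Rpl5 was at 4.24, 5.67 and 13.0 CPM in CD and 2.21, 17.1 and 531 in HFD, so that HFD 3 held most of its HFD sum. Its log2 fold change of 3.90 ± 1.11 (edgeR, adjusted p = 0.0956) was 1.08 without HFD 3.

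Proteins that line or surround the peptide exit tunnel gave unlike values. Rpl35 was at 1.7, 5.06 and 8.27 CPM in CD and 7.55, 15.9 and 177 in HFD, with a log2 difference of 3.09 ± 0.80 (edgeR, adjusted p = 0.0913) and 1.51 without HFD 3. Only HFD 2 fell inside the CD range of Rpl35. Rpl4, one of the most abundant members, was at 24.9, 42.7 and 140 CPM in CD and 33.8, 74.0 and 205 in HFD, a difference of 0.52 ± 0.55 on the log2 scale (edgeR, adjusted p = 0.609). The diets overlapped for Rpl4, whose 4 highest pools apart from HFD 3 were HFD 1, HFD 2, CD 2 and CD 4. Rpl17 (log2 fold change 1.24 ± 0.61) and Rpl19 (3.82 ± 1.28, or 0.50 without HFD 3) did not pass edgeR either, with adjusted p of 0.244 and 0.117. Rpl19 reached 125 CPM in HFD 3 and no more than 4.43 in any other pool.

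Near the peptidyl transferase centre, where the peptide bond forms, Rpl10 was at 4.82 to 14.8 CPM in CD and 5.16 to 76.4 in HFD, and its log2 fold change was 1.40 ± 0.53 (edgeR, adjusted p = 0.149). Rpl8 was at 0.945 to 5.67 CPM in CD and 2.56 to 24.2 in HFD, with a log2 difference of 1.45 ± 0.63 (edgeR, adjusted p = 0.198). Both overlapped between the diets, and without HFD 3 the values were 0.68 for Rpl10 and 0.82 for Rpl8. Rpl3 did not pass the filter and exceeded 2 CPM only in HFD 1 and HFD 3.

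Outside these sites, Rpl37, the highest member per kilobase, was at 23.2, 34.1 and 60.1 CPM in CD and 62.2, 120 and 249 in HFD, with no overlap between the diets. On the log2 scale it differed by 1.78 ± 0.37 (edgeR, adjusted p = 0.0913; DESeq2, adjusted p = 0.00158), and 1.48 without HFD 3. The related zinc-binding protein Rpl37a was at 1.98, 4.17 and 6.6 CPM in CD and 7.88, 11.6 and 27.9 in HFD, again without overlap, with a log2 difference of 1.67 ± 0.42 (edgeR, adjusted p = 0.0913). Rpl41, the smallest ribosomal protein, was at 0.673, 1.46 and 2.62 CPM in CD and 0.736, 11.4 and 131 in HFD. Its log2 fold change of 4.33 ± 0.99 (edgeR, adjusted p = 0.0913; DESeq2, adjusted p = 0.000490) stayed at 2.94 without HFD 3, and HFD 2 alone lay inside the CD range. The X-linked Rpl36a had 3.15 ± 1.03 (edgeR, adjusted p = 0.112), or 1.47 without HFD 3, and 3 of 6 HFD pools above the CD range.

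In all, 6 tested members had every HFD pool above every CD pool, namely Rpl14, Rpl23, Rpl37, Rpl37a and Rplp2 of the 60S and Rps13 of the 40S, against 1.17% of tested genes. The same 6 were without overlap when HFD 3 was left out, against 2.02% of tested genes. Rpl14 and Rpl23 lie outside the naming rule and are listed because the count is small. Some 60S members went another way. Rpl7a, chosen after its values were seen, was at 6.14 to 19.1 CPM in CD and at 1.78, 5.16, 64.2, 0.473, 0.307 and 39.1 CPM in HFD 1 to 6. It was thus under every CD pool in 4 HFD pools and above every CD pool in the other 2, with a log2 difference of 0.86 ± 0.99 (edgeR, adjusted p = 0.642).

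**Figure D3:**
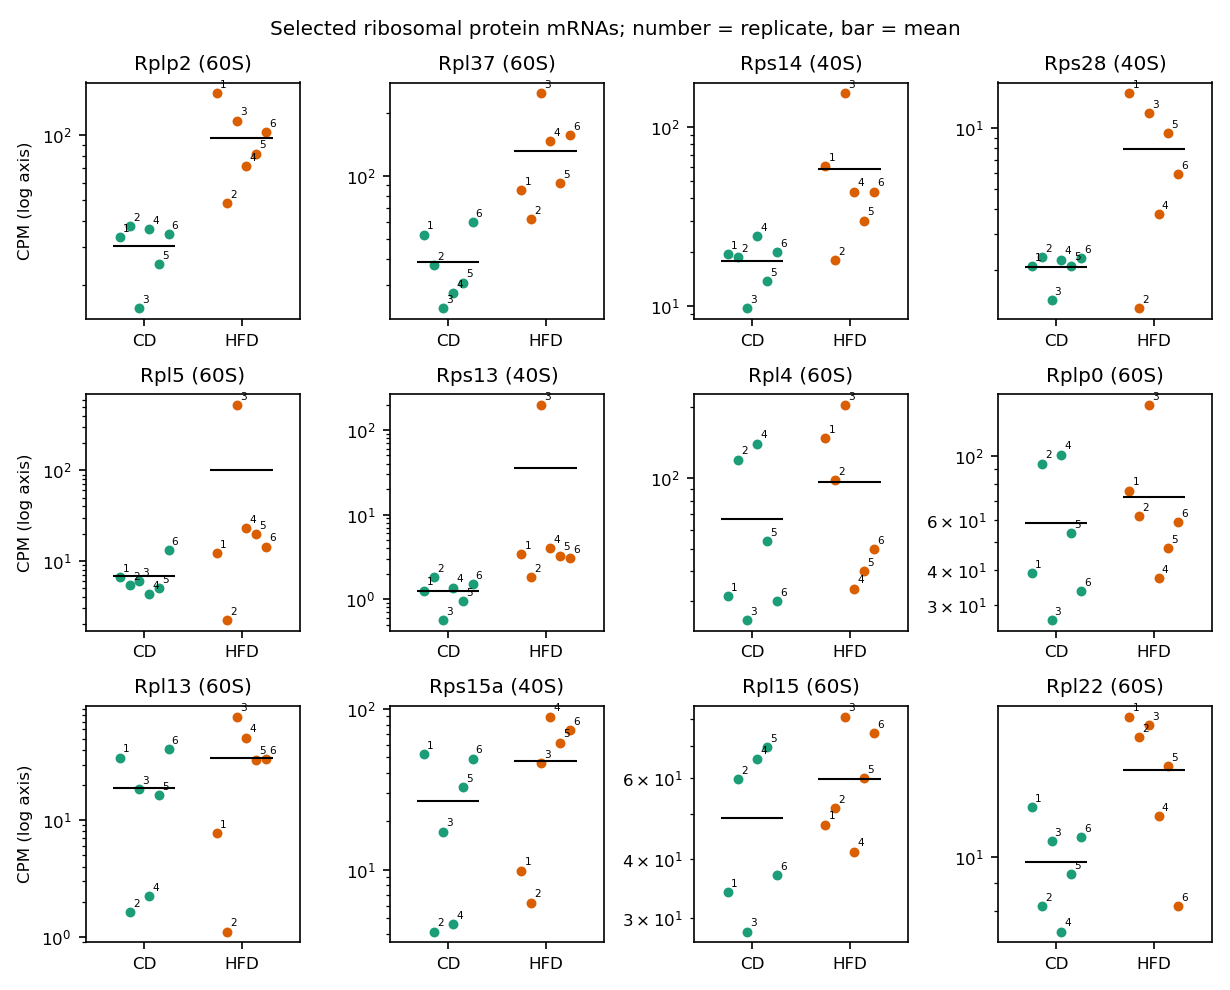
Points give CPM (log axis) of 12 members in each library, numbered by replicate, CD in green and HFD in orange, with a bar at the mean of each diet. Rplp2, Rpl37 and Rps13 do not overlap between the diets; Rpl5 and Rps13 reach 531 and 198 CPM in HFD 3; Rpl4, Rplp0, Rpl13 and Rps15a vary as much within a diet as between diets.

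Among 40S proteins of the decoding site and the mRNA channel, Rps15 was at 0.288, 0.942 and 1.72 CPM in CD and 1.47, 2.29 and 81.1 in HFD. The log2 fold change of Rps15 was 4.14 ± 1.08 (edgeR, adjusted p = 0.0913; DESeq2, adjusted p = 0.00142) and 1.91 without HFD 3, and 4 of 6 HFD pools lay above the CD range. Rps2, Rps3 and Rps23 had log2 fold changes of 1.29, 1.97 and 1.77 with edgeR adjusted p of 0.213, 0.275 and 0.145, and without HFD 3 the values were 0.80, 0.40 and 0.99.

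Rps6, the 40S protein phosphorylated by S6 kinases, was at 0.567, 2.28 and 2.98 CPM in CD and 1.77, 4.27 and 67.6 in HFD. The pools overlapped at HFD 4 and HFD 6, and the log2 fold change of 2.78 ± 0.90 (edgeR, adjusted p = 0.111) was 0.76 without HFD 3. Rps27a, which is made as a fusion with ubiquitin, was at 119 CPM in HFD 3 and at 0 to 6.32 CPM in the other 11 pools, with a log2 difference of 4.03 ± 1.40 (edgeR, adjusted p = 0.125) and 0.74 without HFD 3.

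On the exit side of the 40S, Rps28 gave a contrast that did not rest on HFD 3. It was at 1.42, 2.17 and 2.31 CPM in CD, a narrow range, and at 1.29, 7.74 and 14.9 in HFD. All HFD pools but HFD 2 lay above the CD range, and the log2 fold change was 1.92 ± 0.52 (edgeR, adjusted p = 0.0913; DESeq2, adjusted p = 0.00848), with 1.76 without HFD 3. With the trend of level on transcript length removed, described below, the value for Rps28 was 0.01. Rps21 had 2.11 ± 0.65 (edgeR, adjusted p = 0.105; DESeq2, adjusted p = 0.0191) and 0.99 without HFD 3.

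Other 40S members were led by Rps14, at 9.74, 19.2 and 24.5 CPM in CD and 18.0, 43.5 and 154 in HFD. Only HFD 2 lay inside the CD range of Rps14, and its log2 fold change was 1.71 ± 0.46 (edgeR, adjusted p = 0.0913; DESeq2, adjusted p = 0.0105), or 1.13 without HFD 3. Rps24, in which 80.9% of windows were unique, was at 1.32, 4.64 and 5.69 CPM in CD and 5.63, 9.84 and 59.8 in HFD, with a log2 difference of 2.21 ± 0.61 (edgeR, adjusted p = 0.0946; DESeq2, adjusted p = 0.00915), or 1.38 without HFD 3. Rps13 was at 0.567, 1.32 and 1.83 CPM in CD and 1.84, 3.34 and 198 in HFD, where the lowest HFD pool and the highest CD pool nearly met. The log2 fold change of Rps13, 4.82 ± 1.24 (edgeR, adjusted p = 0.0913), was 1.30 without HFD 3.

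The 22 members that did not pass the filter, 13 of the 60S and 9 of the 40S, included Rpl3, Rpl6, Rpl7, Rpl9, Rpl10a, Rpl12, Rpl18, Rpl23a, Rpl24, Rpl26, Rpl30, Rpl34 and Rpl39 of the 60S and Rps4x, Rps9, Rps18, Rps19, Rps20, Rps26, Rps27 and Rpsa of the 40S. Apart from Rpl26, Rpl9 and Rps27, each of these was highest in HFD 3. The X-linked Rps4x was at 163 CPM in HFD 3 and at 0 to 6.32 in the others. Rpl39, at the narrow end of the exit tunnel, was at 88.4 CPM in HFD 3, 0.662 to 2.92 in the other HFD pools and 0.0961 to 0.571 in CD, and was the one untested member without overlap. Rps26 and Rpsa, a laminin receptor precursor, reached 30.1 and 23.1 CPM in HFD 3 and at most 2.25 and 2.44 elsewhere, and Rpl23a reached 22.3 against 1.24.

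The 2 subunits were then set against each other within each pool. Summed over all members, the 60S took 69.5% ± 3.64 of the CPM per kb of both subunits in CD (63.6% to 73.4%) and 66.5% ± 4.92 in HFD (57.2% to 70.5%; SD, n = 6). The difference of −2.93 percentage points was smaller than the SD of either diet, and it was −1.07 without HFD 3, the pool with the lowest share. As the mean log2 CPM of tested members, the 60S exceeded the 40S by 0.55 ± 0.21 in HFD and 0.53 ± 0.15 in CD. The summed 60S level was 210 to 450 CPM per kb in CD and 437 to 866 in HFD without HFD 3, which held 4055. The 40S sum was 96.5 to 252 CPM per kb in CD and 183 to 463 in HFD without HFD 3, which held 3029.

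**Figure D4:**
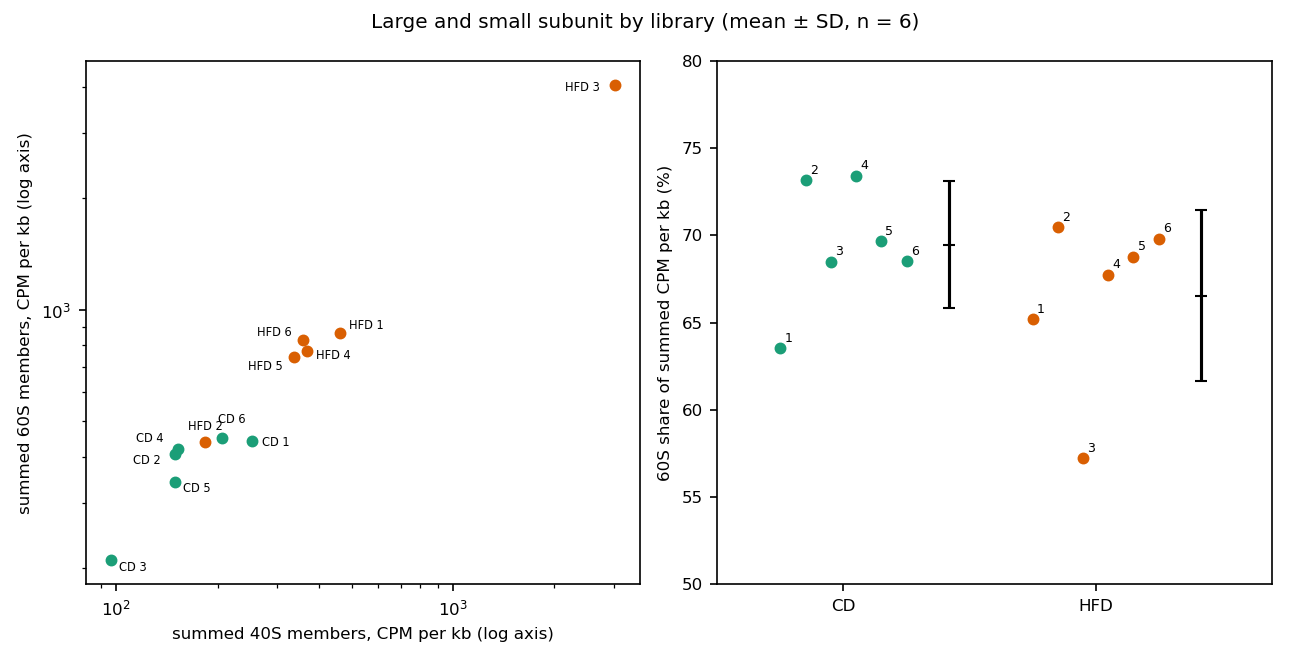
Left, summed CPM per kb of 60S members against that of 40S members in each library (both log axes); right, the 60S share of both sums in percent, numbered by replicate, with mean ± SD of 6 libraries beside it. The libraries lie along one band, HFD 3 lies far along it at 4055 and 3029 CPM per kb, and the shares overlap between the diets.

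Members varied together across pools in both subunits. The median Pearson correlation of log2 CPM between tested members over the 12 pools was 0.71 within the 60S, 0.77 within the 40S and 0.74 between the subunits, and over the 11 pools without HFD 3 it was 0.48, 0.54 and 0.52. These values describe pools that share a diet, a library and a depth.

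Transcript length and level both moved with the diet contrast. Tested members had a median main transcript of 946 bases (60S) and 869 bases (40S), against 2979 for all tested genes with a length. Across the 55 tested members, the log2 fold change had a Spearman correlation of −0.48 with length and −0.73 with the CD level, which enters the fold change itself. In each library, the deviations of log2 CPM from the gene means over the 12 libraries were fitted on length, and this trend was removed. The diets were then compared with limma rather than edgeR. The medians were 0.50 (60S) and 0.41 (40S), with 50 of 55 members above 0 (48% of tested genes). Of the 6 members without overlap, Rpl23 stood at 1.56, Rps13 at 0.96, Rplp2 at 0.76, Rpl37 at 0.73, Rpl14 at 0.40 and Rpl37a at 0.25 on this scale. Among the 7 tested members with at least 80% unique windows, the median was 0.55 for the 60S (Rpl4, Rpl8 and Rpl22) and 2.09 for the 40S, among them Rps3, Rps15a and Rps24. The 23 tested members with a pyrimidine run in the searched stretch had a median log2 fold change of 1.98, and the 18 without one 1.85. Without HFD 3 these medians were 0.84 and 1.15.

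**Figure D5:**
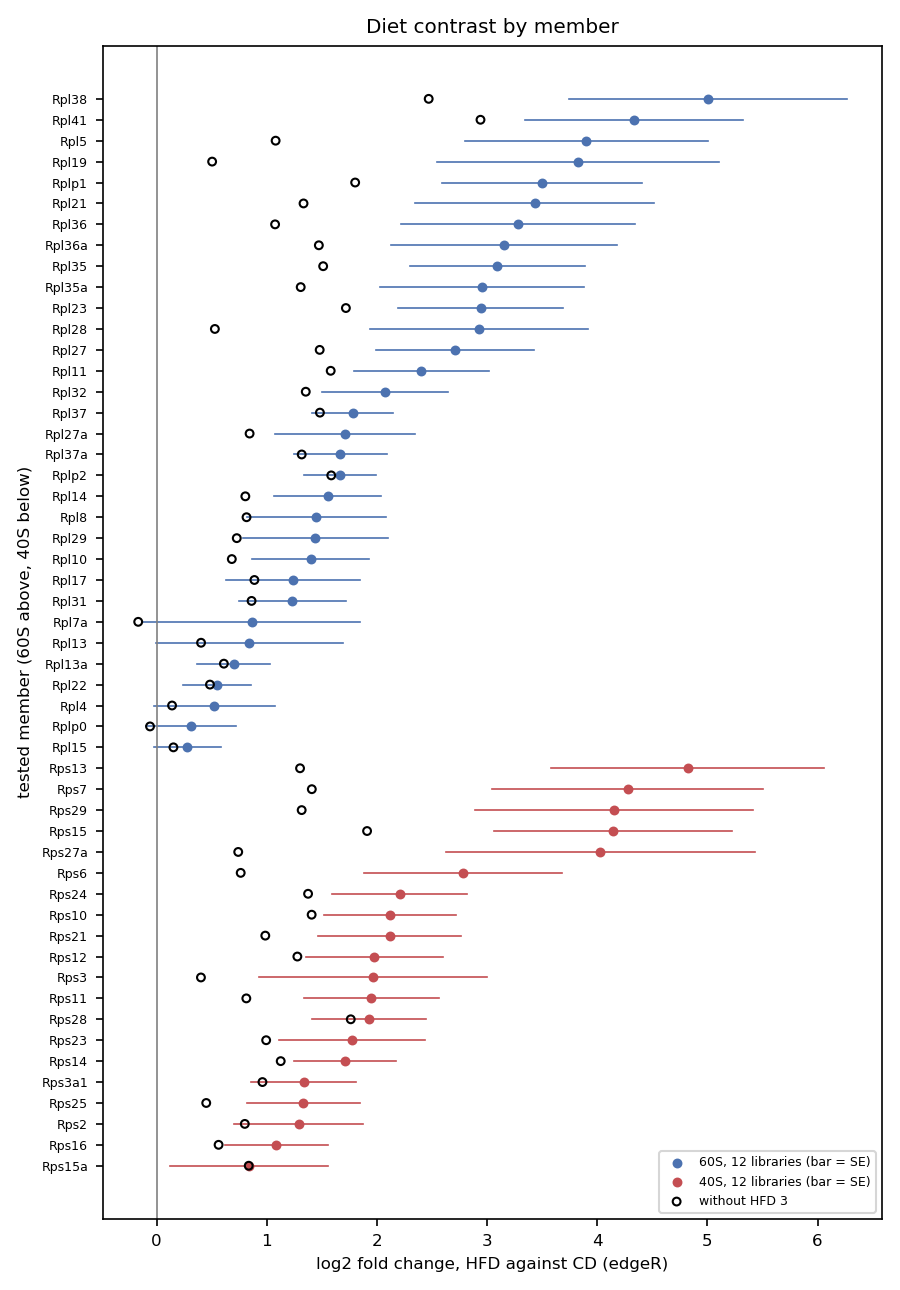
Log2 fold change (HFD against CD, edgeR) of 52 tested members over 12 libraries, with bars of 1 SE, blue for 60S and red for 40S, and the value without HFD 3 as an open circle. All 52 filled points lie above 0; most open circles lie closer to 0 (medians over all 55 tested members of 1.08 and 0.99), and those of Rpl7a and Rplp0 lie below it.

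A few members separated the 4 pools low in Gdf9 from the rest, at a share under that of all tested genes. These pools, HFD 1, HFD 2, CD 2 and CD 4, are not a group of the study. With HFD 3 set aside, they were the 4 lowest for 2 of 55 members, Rpl13 and Rps15a (9.63% of tested genes), and the 4 highest for 2 of 55, Rpl4 and Rplp0 (9.45% of tested genes). Rpl13 was at 1.10 to 7.78 CPM in these pools and at 16.3 to 51.1 in the other 7, and Rps15a, in which 93.6% of windows were unique, was at 4.13 to 9.89 and at 17.3 to 89.6. Rpl4 was at 98.3 to 148 CPM in these pools and at 24.9 to 54.0 in the other 7. These 4 members are described after their values were seen. With the 4 pools and HFD 3 all left out, the median log2 fold changes were 1.18 (60S) and 1.06 (40S), and 0 of 53 tested members passed edgeR, against 0.108% of tested genes called higher.

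Ribosomal proteins outside the symbol rule had positive log2 fold changes too, 7 of 7 tested, with a median of 1.73, or 1.11 without HFD 3 and 0.33 with the length trend removed, and DESeq2 called 4 of them higher (4.83% of tested genes). Rps27l, a close relative of Rps27, was at 185 to 675 CPM in CD and 630 to 2311 in HFD, with a log2 difference of 1.42 ± 0.35 (edgeR, adjusted p = 0.0913; DESeq2, adjusted p = 0.00829). Its lowest HFD pool was HFD 3, and the log2 difference was 1.54 without that pool and 0.02 with the length trend removed. All 77 members together summed to 331 to 720 CPM in CD and to 659 to 1290 in HFD without HFD 3. Rps27l over that sum was 0.53 to 1.05 in CD, 0.86 to 1.79 in HFD without HFD 3, and 0.10 in HFD 3. Rps27 itself had 1 count in HFD 3 and 1 in CD 4. In Rps27l 77.6% of windows were unique, against 1.35% in Rps27.

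Mitochondrial ribosomal proteins, which serve a separate ribosome, were above 0 for 66 of 69 tested genes, with a median of 1.31, or 0.70 without HFD 3. With the length trend removed, their median was 0.47, with 55 of 69 above 0. The other parts of the translation apparatus lay closer to the background of 51.8% above 0. In each of the following lists edgeR called 0 genes. Elongation factors were above 0 for 6 of 8 tested (Eef1a1, which delivers transfer RNA, 1.77 ± 0.74, and 0.37 without HFD 3). Ribosome-bound and recycling factors were above 0 for 5 of 17, with G3bp1, a stress granule protein, at −1.21 ± 0.42 (edgeR, adjusted p = 0.122). Factors of 60S assembly were above 0 for 22 of 32, and DESeq2 called 4 of them higher (4.83% of tested genes), among them Tma16 (1.13 ± 0.33) and Nsa2 (0.79 ± 0.25). Factors of 40S assembly were above 0 for 19 of 37, with Fcf1, of the processome that cuts ribosomal RNA, at 4.61 ± 1.21 and 1.17 without HFD 3.

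Box C/D particle and nucleolar genes were above 0 for 6 of 11, with Npm1, the nucleolar chaperone nucleophosmin, at 0.54 ± 0.24. RNA polymerase I genes were above 0 for 7 of 11. Taf1d, a subunit of its initiation factor, was at 23.8 to 49.7 CPM in CD and 58.2 to 106 in HFD, with no overlap, and differed by 1.15 ± 0.26 on the log2 scale (edgeR, adjusted p = 0.0913; DESeq2, adjusted p = 0.00260). Regulators of ribosomal protein messenger RNAs were above 0 for 9 of 16, with Ssb, the La protein, at 0.78 ± 0.25 and Larp4 at −0.96 ± 0.33 (edgeR, adjusted p of 0.111 and 0.121).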

How the data were processed

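RNA from 12 pools of mouse oocytes was sequenced after template-switching cDNA synthesis (SMART-Seq v4) and tagmentation (Nextera XT), per the labels' protocols. The chemistry does not mark strand. The authors deposited whole-number read counts per gene symbol, made with STAR and HTSeq 1.0.0 on mm10 per the submitters' processing notes, which also name DESeq2 1.0.19. No annotation or counting option is named there. The tallies of unassigned reads (62.3% to 72.9% of all tallied reads) stayed out of library sizes and tests.

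HFD was compared with CD in edgeR 4.0.16 (R 4.3.3) with TMM factors, the default filter on low counts, the robust quasi-likelihood test with diet as the only term, and Benjamini-Hochberg adjustment over all 9935 genes tested (threshold 0.05). DESeq2 1.42.0 and limma 3.58.1 (voom) were alternatives. Values with the length trend removed came from limma on log2 CPM, without voom. Log2 CPM used a prior count of 2. The fit was tested on simulated counts with the same dispersion for every gene. The simulation held no outlying pool, no all-even library and no group of pools low in Gdf9, so it does not cover these features. Main transcripts (best-ranked principal, then longest) and coordinates came from GENCODE M21.

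The members and lists were chosen with earlier results of these data known. Named members were the 5 with the smallest p per subunit, the 3 highest and 3 lowest per kilobase, members of fixed role lists, and up to 2 genes per pathway list; others are said to be chosen after their values were seen. Reads carry no molecular identifiers. The upper limit for Rpl26 covers counting error only. Values after ± are the SE of the fit or the SD over pools, and so include the spread between pools. Results for a few genes are not reported here.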

Additional observations from a re-analysis of the deposited data

Results flagged for a closer look

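Among the 6 pools of a diet, a pool was marked when its gap to the next pool, as a share of the range of that diet, passed Dixon's 95% critical value. In all, 76 groups were examined, over 36 named members, the 60S share and the share of counts in members. Chance would mark about 1 in 20 groups if they were independent and normally spread. These groups share the same libraries and their spread was not checked, so that rate need not hold here. A member counted in a single pool of a diet, as Rps27 was, is always marked. Marks fell on HFD 3 in 27 cases, on CD 1 in 5, and on CD 3, CD 4 and CD 6 in 1 each.

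HFD 3 was above the other HFD pools in the share of gene counts in members, 0.751%. Among 60S members it stood apart in Rpl5 (531 CPM), Rpl35 (177 CPM), Rplp0 (152 CPM), Rpl41 (131 CPM), Rpl19 (125 CPM) and Rplp1 (95 CPM). Rpl39 (88.4 CPM), Rpl11 (85.9 CPM), Rpl10 (76.4 CPM), Rpl36a (39.0 CPM), Rpl12 (29.6 CPM), Rpl37a (27.9 CPM) and Rpl23a (22.3 CPM) were marked in the same pool.

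Among 40S members HFD 3 stood apart in Rps13 (198 CPM), Rps4x (163 CPM), Rps14 (154 CPM), Rps27a (119 CPM), Rps15 (81.1 CPM) and Rps6 (67.6 CPM). Rps24 (59.8 CPM), Rps21 (50 CPM), Rps26 (30.1 CPM), Rps3 (23.9 CPM), Rpsa (23.1 CPM) and Rps23 (20.9 CPM) were marked there too, as was Rps27 with its single count (0.0997 CPM).

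CD 1 was above the other CD pools in Rps3 (4.52 CPM), Rps27a (3.52 CPM), Rpsa (2.44 CPM), Rpl12 (1.81 CPM) and Rpl3 (1.72 CPM). CD 6 was highest in Rpl5 (13.0 CPM), CD 4 had a single count of Rps27 (0.125 CPM), and CD 3 was lowest in Rps28 (1.42 CPM).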

How the results depend on the processing

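No member passed edgeR in any fit that left out a single pool, and the medians then ranged from 1.08 to 2.10 (60S) and from 0.99 to 2.21 (40S), with the low ends without HFD 3. The difference of the medians, 60S minus 40S, was −0.19 with all pools and ranged from −0.32 to 0.085 with each pool left out. It was 0.20 without the filter on low counts, 0.18 with voom, 0.21 with the replicate block, 0.13 in odd-count pools alone, 0.094 with the length trend removed, −0.44 without the 4 pools lowest in Gdf9, and 0.12 without these and HFD 3, so its sign is not settled. With each pool left out the difference in the 60S share ranged from −4.11 to −1.07 percentage points, and that in mean log2 CPM from −0.04 to 0.06. The share difference was −6.46 percentage points in odd-count pools alone and 1.22 without the 4 pools lowest in Gdf9 and HFD 3.

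Calls depended on the tool and the pools. DESeq2 called 18 members and 754 genes in all, voom 2 and 35, and the fit on odd-count pools alone (HFD 3 and 5 against 6 CD) 43 members and 456 genes, with medians of 3.25 (60S) and 3.12 (40S). Without the 4 pools lowest in Gdf9 and HFD 3, 11 genes and 0 members passed. The length correction gave medians of 0.50 and 0.41. In members with at least 80% unique windows, the 60S median was 0.55 and the 60S share −10.1 percentage points. The causes were not tested.

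The log2 fold change of Rplp0 was −0.21 with the length trend removed, and from −0.059 (without HFD replicate 3) to 0.54 with each pool left out. That of Rps21 was −0.073 with the length trend removed, and without the 4 pools and HFD 3 Rps27a stood at −0.073 and Eef1a1 at −0.20. The sample titles give replicate numbers but state no pairing. Deviations of same-numbered pools correlated from −0.45 to 0.55, and 2 of 6 matched best with their own number. So few pools cannot show whether pools of the same number share a batch. With the replicate number as a block no member was called, and the medians were 1.53 and 1.32. The comparison of windows with the genome was not run, because the genome sequence was not used here. Fits chosen after seeing the data were those without the pools lowest in Gdf9, on unique windows, and with the shortest transcript.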
